A study of Mus musculus with 4 samples.

Results

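The Cyp4a fatty acid hydroxylases were followed in RNA of mouse liver mitochondria. The 6 genes, Cyp4a10, Cyp4a14, Cyp4a31, Cyp4a32, Cyp4a12a and Cyp4a12b, were taken by gene symbol from a table of 37819 features, and all 6 were found there. A filter of at least 10 counts in at least 1 library left 5347 features, with all 6 genes among them. Cyp4a31 and Cyp4a32 passed it only through ob and db. The genes were described singly and as 2 sums, the Cyp4a10 group (Cyp4a10, Cyp4a14, Cyp4a31 and Cyp4a32) and the Cyp4a12 group (Cyp4a12a and Cyp4a12b), because close copies share reads.

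Total RNA was sequenced from 1 library per group, and all mice were in postnatal week 7. The ob library came from mice of genotype B6.Cg-Lepob/J, which lack functional leptin, the hormone of fat tissue that restrains feeding. The NASH library was labelled wild type-NASH (non-alcoholic steatohepatitis), and what brought the disease about was not given. The db library came from mice with the Leprdb allele, a mutated leptin receptor. Its strain label reads C57BL/6J, while its genotype names the BKS background. The reference was wild-type C57BL/6J. By genotype, strain background and the Leprdb allele therefore cannot be told apart in any comparison of db. Diet, sex, the number of animals behind a library and the way mitochondria were purified were not stated. Since each group is a single library, no difference could be tested or checked against replicates. Intervals are exact 95% intervals and cover counting error only, not variation among animals or preparations. Reads lacking molecular identifiers need not stem from separate molecules, so the intervals may understate even that error.

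Cyp4a enzymes are cytochromes P450 of the endoplasmic reticulum, encoded in the nucleus, that add a hydroxyl group to the last (omega) carbon of fatty acids such as lauric acid and arachidonic acid. The products are oxidised further to dicarboxylic acids, which peroxisomes shorten by beta-oxidation. In mouse liver Cyp4a10 and Cyp4a14 are classical targets of the fatty acid receptor PPARalpha and are induced by fasting and by fibrate drugs, while Cyp4a12a depends on androgen and on the male pattern of growth hormone and is the main arachidonic acid omega-hydroxylase in males.

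All 6 genes lay within one cluster on chromosome 4 (build mm10, positions of the deposited table). Cyp4a12a (ENSMUSG00000066071) spanned chr4:115299046-115332815 and Cyp4a12b (ENSMUSG00000078597) chr4:115411624-115439034, both on the plus strand. Cyp4a14 (ENSMUSG00000028715) lay on the minus strand at chr4:115486200-115496142. Cyp4a10 (ENSMUSG00000066072), Cyp4a31 (ENSMUSG00000028712) and Cyp4a32 (ENSMUSG00000063929) followed on the plus strand at chr4:115518264-115533649, chr4:115563649-115579015 and chr4:115600969-115621602. How well reads can be assigned to one of them depends on their sequences. The coding stretch of 60 bases that includes the heme-binding cysteine, which spans exons 11 and 12 (for Cyp4a10, chr4:115529487-115532558 with the intron between them), shows how close they are. In each line capitals mark bases that differ from Cyp4a10.
Cyp4a10: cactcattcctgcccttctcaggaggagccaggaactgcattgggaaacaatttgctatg
Cyp4a31: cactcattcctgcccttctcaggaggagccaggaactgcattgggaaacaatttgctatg
Cyp4a32: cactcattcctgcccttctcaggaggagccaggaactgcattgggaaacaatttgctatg
Cyp4a12a: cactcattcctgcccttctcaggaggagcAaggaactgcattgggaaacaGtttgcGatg
Cyp4a12b: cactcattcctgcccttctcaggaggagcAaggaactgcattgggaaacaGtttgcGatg
Cyp4a14: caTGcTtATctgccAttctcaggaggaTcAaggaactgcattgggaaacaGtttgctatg

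A read from this stretch cannot be told apart among Cyp4a10, Cyp4a31 and Cyp4a32, nor between Cyp4a12a and Cyp4a12b. The 60 coding bases with the most positions that differed among Cyp4a10, Cyp4a31 and Cyp4a32 lay in exon 2, at chr4:115519640-115519699, chr4:115565020-115565079 and chr4:115602270-115602329 (mm10, plus strand), and are given because Cyp4a32 stands apart there by 9 bases, while Cyp4a31 differs from Cyp4a10 by 2. Capitals again mark differences from Cyp4a10.
Cyp4a10: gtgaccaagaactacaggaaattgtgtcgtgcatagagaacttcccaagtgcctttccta
Cyp4a31: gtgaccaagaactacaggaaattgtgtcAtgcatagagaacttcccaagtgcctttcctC
Cyp4a32: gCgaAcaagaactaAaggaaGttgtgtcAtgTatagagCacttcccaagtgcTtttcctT

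For the Cyp4a12 pair the most different 60 coding bases, across exons 5 and 6 (for Cyp4a12a, chr4:115326309-115326681 with the intron between), held 4 differences, in capitals relative to Cyp4a12a.
Cyp4a12a: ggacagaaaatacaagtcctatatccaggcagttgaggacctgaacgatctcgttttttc
Cyp4a12b: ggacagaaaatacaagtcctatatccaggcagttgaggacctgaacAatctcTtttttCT

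Over the whole coding sequence (GENCODE M21), Cyp4a10 was 97.2% identical to Cyp4a32 and 96.6% to Cyp4a31, and Cyp4a12a was 98.5% identical to Cyp4a12b. Cyp4a14 was only 75.1 to 75.9% identical to the others. Of all 50-base words of a gene's transcript, 48.9% for Cyp4a12a, 49.4% for Cyp4a12b, 46.8% for Cyp4a32, 30.5% for Cyp4a10 and 21.8% for Cyp4a31 also occurred in another gene's transcripts, against 0.245% for Cyp4a14. The split between Cyp4a12a and Cyp4a12b, and among Cyp4a10, Cyp4a31 and Cyp4a32, is therefore uncertain, since the treatment of reads with several places is not given. The Cyp4a14 count is little affected by this. A RefSeq promoter (GRCm38.p6, 250 bases before to 50 after the start) was matched for 1 of the 6 genes, Cyp4a32. On either strand these bases held no AGGTCA, the letters of the PPAR half-site, which occurred in 16.3% of 32851 promoters. They also held no pair of it with 1 base between, with up to 2 mismatches, which occurred in 3.86%.

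The libraries were shallow and unequal, which limits every value. Totals were 1000102 counts in ob, 529612 in NASH, 1005741 in db and 627731 in wild-type. Of these, 28.7%, 75.5%, 26.3% and 53.3%, in that order, lay on 9 features whose transcripts resemble mitochondrial DNA. Counts were scaled by TMM (trimmed mean of M values) to CPM, counts in 1000000. A count of 0 allowed up to 1.99 CPM in ob, 6.14 CPM in NASH, 2.84 CPM in db and 6.98 CPM in wild-type (3 counts per library). The ob library stood apart in nuclear RNA, with 7450 counts of Neat1 against 5 in NASH, 109 in db and 7 in wild-type. All 12 hepatocyte markers were detected in every library, and their summed level was 42769 CPM in ob, 7026 CPM in NASH, 137150 CPM in db and 61450 CPM in wild-type. Markers of kidney, the other organ rich in Cyp4a12, summed to 0 to 1 count per library, and those of fat cells to 2 to 5 counts.

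Cyp4a14, the most abundant of the family in ob, NASH and db, was the gene that differed most in ob and db. It had 1419 counts (942 CPM) in ob, 18 counts (36.8 CPM) in NASH, 4611 counts (4362 CPM) in db and 49 counts (114 CPM) in wild-type. The level was thus high in db, lower in ob, and lowest in NASH, with wild-type between ob and NASH. Relative to wild-type it was 8.26-fold higher in ob (6.21 to 11.2) and 38.2-fold higher in db (28.9 to 51.8), and 3.10-fold lower in NASH (1.77 to 5.65). Among protein-coding features, mtDNA-like features left out, Cyp4a14 ranked 28 in ob, 462 in NASH, 13 in db and 245 in wild-type.

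Cyp4a10, its partner as a PPARalpha target, followed the same order with smaller differences from wild-type in ob and db. There were 349 counts (232 CPM) in ob, 4 counts (8.18 CPM) in NASH, 1473 counts (1393 CPM) in db and 47 counts (109 CPM) in wild-type. Cyp4a10 was 2.12-fold higher in ob (1.56 to 2.94), 13.4-fold lower in NASH (4.89 to 51.1) and 12.7-fold higher in db (9.53 to 17.4). In wild-type Cyp4a10 and Cyp4a14 counts were nearly equal. In the other 3 libraries Cyp4a14 was several times more frequent. The NASH direction of Cyp4a14 depended on the filter before TMM, and with at least 50 counts required its log2 difference in NASH was 0.17.

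Cyp4a31 and Cyp4a32, the 2 near copies of Cyp4a10 with less studied functions, were rare except in db. Cyp4a31 had 22 counts in ob, 2 in NASH, 113 in db and 4 in wild-type, and Cyp4a32 had 36 in ob, 1 in NASH, 164 in db and 4 in wild-type. In db they were 11.5-fold (4.36 to 42.9) and 16.7-fold (6.39 to 61.9) higher than in wild-type. In ob, the ratios of 1.57 (0.533 to 6.26) and 2.57 (0.92 to 9.93) have intervals that include 1, as do the NASH ratios of 0.439 (0.0398 to 3.07) and 0.22 (0.00446 to 2.22), so no difference was detectable at this depth.

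Cyp4a12a and Cyp4a12b, the Cyp4a12 pair, did not follow this pattern in ob. Cyp4a12a had 96 counts (63.7 CPM) in ob, 0 in NASH, 642 (607 CPM) in db and 35 (81.5 CPM) in wild-type. Cyp4a12b had 48 counts (31.9 CPM) in ob, 0 in NASH, 203 (192 CPM) in db and 32 (74.5 CPM) in wild-type. The deposited NASH value was 0.5 for each gene, which rounds to 0.
In db, Cyp4a12a was 7.45-fold (5.3 to 10.8) and Cyp4a12b 2.58-fold (1.77 to 3.87) higher than in wild-type. In ob, Cyp4a12a differed from wild-type by less than the counting error (ratio 0.782, 0.526 to 1.19), and Cyp4a12b was 2.34-fold lower (1.45 to 3.73). In NASH they were at least 13.3-fold and at least 12.1-fold lower. Without annotation of how shared reads were divided, the ratio of their sum is the firmer value.

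**Figure D1:**
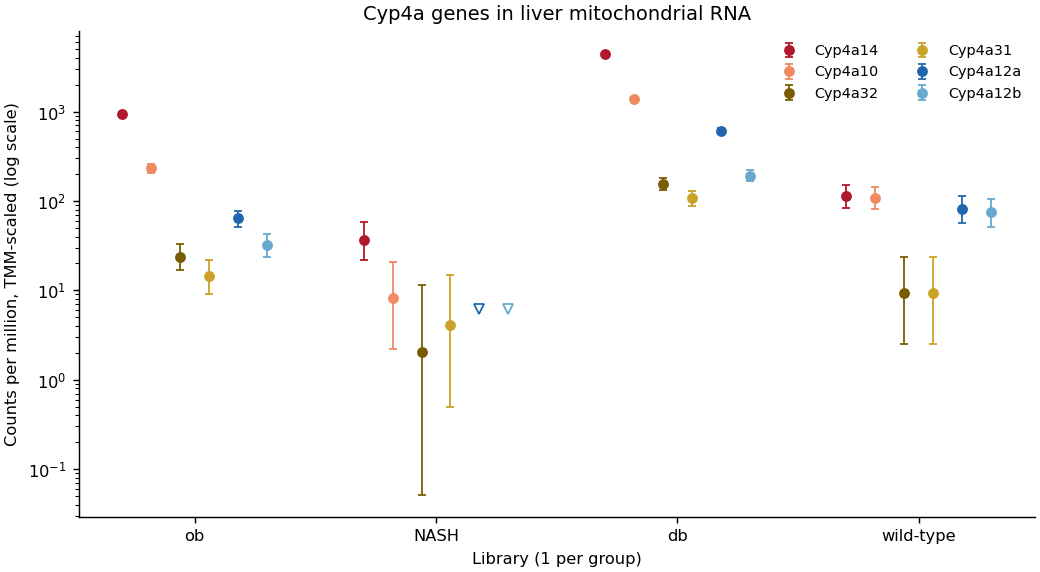
Level of each Cyp4a gene (TMM-scaled CPM, log axis) in the ob, NASH, db and wild-type libraries, 1 library per group, with exact 95% intervals for counting error; open triangles mark genes at 0 counts, drawn at 3 counts. The 6 genes lie highest in db, where Cyp4a14 reaches 4362 CPM, and lowest in NASH, where Cyp4a14 is at 36.8 CPM.

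Per length of exon, which is the scale on which genes can be compared within a library, Cyp4a14 led in ob, NASH and db and Cyp4a10 led in wild-type. Levels in CPM per kilobase were 362 in ob, 14.2 in NASH, 1677 in db and 43.9 in wild-type for Cyp4a14. Those of Cyp4a10 were 110 in ob, 3.88 in NASH, 661 in db and 51.9 in wild-type. Cyp4a12a came next in ob, db and wild-type, with 26.3, 251 and 33.6 CPM per kilobase. The order of Cyp4a14, Cyp4a10, Cyp4a12a and Cyp4a12b in wild-type is not resolved, since all 4 had 32 to 49 counts there. Cyp4a31 and Cyp4a32 were the lowest genes in wild-type, at 3.71 and 6.06 CPM per kilobase.

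As sums, taken before rounding and so up to 1 count off the sum of the rounded genes, the Cyp4a10 group had 1826 counts in ob, 25 in NASH, 6361 in db and 103 in wild-type. That made 0.456% of protein-coding counts without mtDNA-like features in ob, 0.0412% in NASH, 1.11% in db and 0.0678% in wild-type. On the TMM scale the group was 5.05-fold higher in ob (4.14 to 6.23), 4.69-fold lower in NASH (3.0 to 7.58) and 25.1-fold higher in db (20.7 to 30.8) than in wild-type. The NASH direction rests on the scaling. Relative to the summed hepatocyte markers the group was 1.87-fold higher in NASH than in wild-type. Relative to 13 other hepatocyte P450 genes it was 1.41-fold higher. Both values rest on 25 NASH counts and have no interval, so whether either differs from 1 was not tested. Alb made 2225 of the 3434 marker counts in NASH and 16453 of the 26398 in wild-type. Cyp2e1 stands in both reference lists.

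The Cyp4a12 group had 145 counts in ob, 1 in NASH, 844 in db and 67 in wild-type, which was 0.0362%, 0.00165%, 0.147% and 0.0441% of the same protein-coding counts. It was 1.62-fold lower in ob (1.19 to 2.18), 76.2-fold lower in NASH (13.2 to 3060, from 1 count) and 5.12-fold higher in db (3.99 to 6.67). The ob value depended on scaling, and by plain library totals the group was 1.36-fold higher in ob. Relative to the hepatocyte markers it remained lower in NASH, at a ratio of 0.115, and higher in db, at 2.29.

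**Figure D2:**
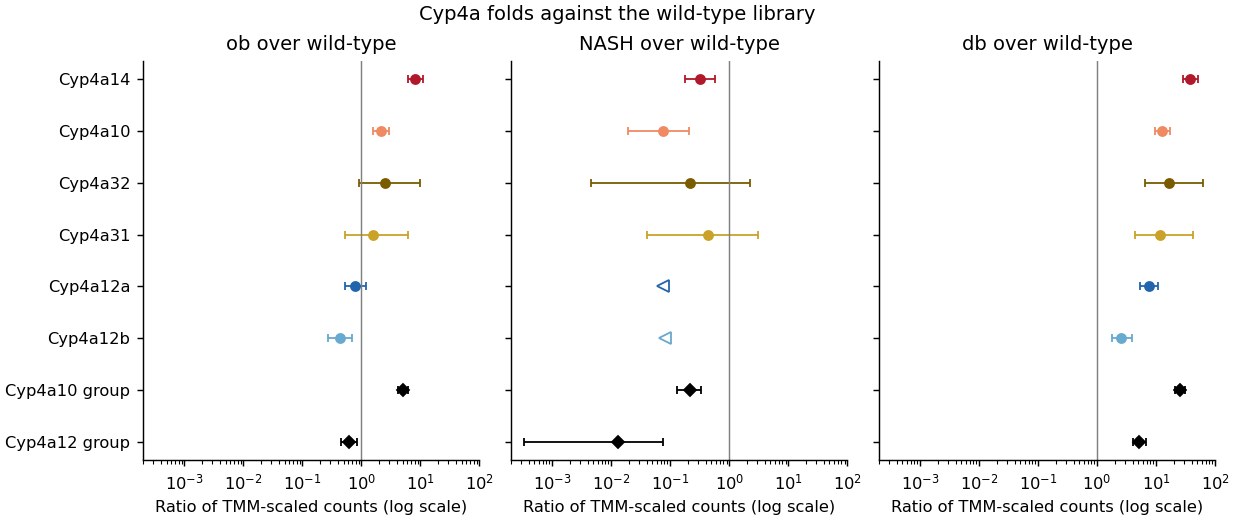
Ratio to wild-type (log axis) of each Cyp4a gene and of the 2 summed groups in ob, NASH and db, on the TMM scale; bars are exact 95% intervals for counting error and open triangles are upper bounds for genes at 0 counts. All db ratios lie above 1, all NASH ratios lie below 1, and in ob the Cyp4a10 group is at 5.05 and the Cyp4a12 group at 0.617.

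The background was broad. In ob, 34.7% of the 5347 features stood at least 2-fold above wild-type and 15.7% at least 2-fold below it, by the difference of log2(CPM + 1). Among the 6 Cyp4a genes this held for 3 and 1, and their median difference was 0.84, where that over all features was 0.40. The 3 higher genes include Cyp4a32, whose counting interval includes no difference. Their number was 2 by DESeq2 size factors and with the filter of 50 counts. It was 4 by library totals, by totals without mtDNA-like features and with no filter. The 1 gene that stood below, Cyp4a12b, was less than 2-fold below by library totals, by the submitters' scaling, by totals without mtDNA-like features and with no filter. In NASH 20.3% of features stood above and 32.0% below by that much, and all 6 Cyp4a genes stood below. That count was 5 or 3 under every alternative but the pseudocount of 0.5 CPM, and it includes Cyp4a31 and Cyp4a32, whose counting intervals include no difference. Their median difference in NASH was -2.67 (-2.58 with genes at 0 set to 3 counts), where that over all features was -0.15.
In db 28.9% of features stood above and 21.5% below, and all 6 Cyp4a genes stood above, with a median of 3.52 where all features had 0.10. Cyp4a31 and Cyp4a32 are counted there though they passed the filter only through ob and db, and they can share reads with Cyp4a10. The 3 comparisons share the wild-type library, whose 4 to 49 counts per gene enter each ratio. The split of all features moved with scaling. In ob, 1857 were higher and 842 lower, but 3296 and 249 by library totals. In NASH, 1084 were higher and 1711 lower, but 2610 and 875 by totals without mtDNA-like features, where 3 of 6 Cyp4a genes were still lower. In db, 1547 were higher and 1149 lower, but 2107 and 731 by the submitters' scaling.

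Both leptin-pathway mutants were also set side by side without wild-type. In db over ob, 19.6% of all features stood at least 2-fold above and 30.3% below, while all 6 Cyp4a genes stood above. Their median difference was 2.62, where that over all features was -0.17. Cyp4a31 and Cyp4a32, counted among the 6, passed the filter only through ob and db and can share reads with Cyp4a10. By library totals 425 features were higher and 2276 lower, in place of 1048 and 1618. Cyp4a14 was 4.63-fold (4.36 to 4.92), Cyp4a10 6.02-fold (5.35 to 6.78) and Cyp4a12a 9.53-fold (7.68 to 11.9) higher in db than in ob. The Cyp4a10 group was 4.97-fold (4.71 to 5.23) and the Cyp4a12 group 8.30-fold (6.95 to 9.96) higher. The hepatocyte markers were 3.21-fold higher in sum in db than in ob, and relative to them the group ratios were 1.55 and 2.59. The 2 mutants differ in strain background by genotype, in nuclear RNA content and in erythroid markers, and the part of these in the difference was not tested. The 6 erythroid markers summed to 2714 counts in ob, 10 in NASH, 39 in db and 73 in wild-type, 10.6-fold higher in ob than in wild-type (5 of 5 past the filter) and 48.8-fold lower in db than in ob (5 of 5).

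The make-up of the family within a library needs no scaling between libraries. Cyp4a14 had 4.07 counts per Cyp4a10 count in ob (3.61 to 4.58), 4.5 in NASH (1.48 to 18.3), 3.13 in db (2.95 to 3.32) and 1.04 in wild-type (0.684 to 1.59). The interval of wild-type did not overlap those of ob and db, and it overlapped that of NASH. The Cyp4a10 group had 12.6 counts per Cyp4a12 group count in ob (10.6 to 15), 25.0 in NASH (4.09 to 1030), 7.54 in db (7.01 to 8.11) and 1.54 in wild-type (1.12 to 2.12).
So the Cyp4a12 pair made 7.36% of Cyp4a counts in ob, 3.85% in NASH (1 of 26 counts) and 11.7% in db, against 39.4% in wild-type. Within the pair, Cyp4a12a had 2.0 counts per Cyp4a12b count in ob (1.4 to 2.89), 3.16 in db (2.7 to 3.72) and 1.09 in wild-type (0.658 to 1.82), with none to compare in NASH.

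**Figure D3:**
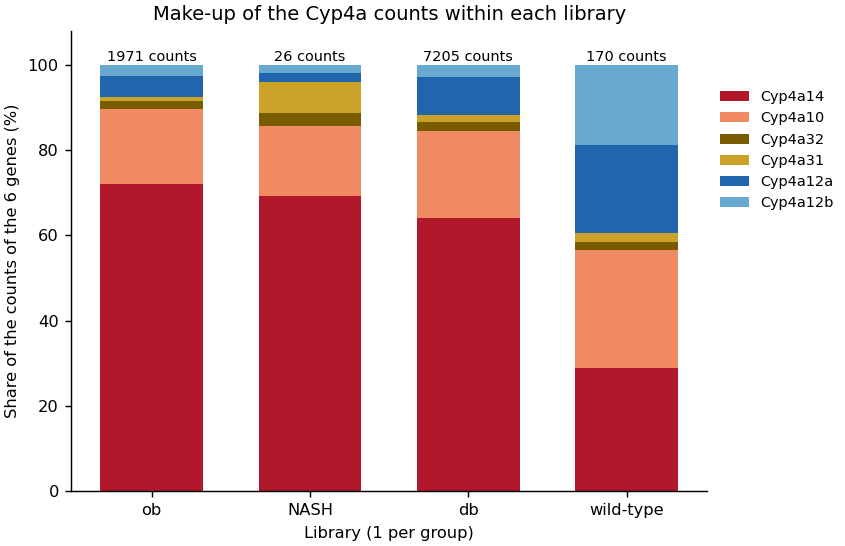
Share of the deposited counts of the 6 Cyp4a genes taken by each gene within the ob, NASH, db and wild-type libraries, with the total of the 6 above each bar. The blue Cyp4a12 part is small in ob, NASH and db and makes 39.4% in wild-type; the NASH bar rests on 26 counts.

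Other genes of the Cyp4 family were nearer to wild-type in db than the Cyp4a10 group, but not clearly nearer than Cyp4a12b. Of 5 other Cyp4 genes past the filter, 1 was at least 2-fold above wild-type and 0 below in ob, 5 were below in NASH (1 of them, Cyp4f17, with no more than 3 counts in either library), and 2 were above and 0 below in db. Their sum was 1.61-fold higher in db, against 25.1-fold for the Cyp4a10 group and 2.58-fold for Cyp4a12b. Cyp4f17, named after its values were seen, had 13 counts in ob, 0 in NASH, 10 in db and 1 in wild-type, a db ratio of 4.06 (0.578 to 176). Cyp4f14, a leukotriene and fatty acid omega-hydroxylase, had 80 counts in ob, 2 in NASH, 203 in db and 41 in wild-type, and was 2.01-fold higher in db (1.43 to 2.89) and 23.3-fold lower in NASH (6.06 to 199). Cyp4v3, another fatty acid omega-hydroxylase, had 330, 15, 333 and 92 counts in the same order, with ratios near 1 in ob (1.02, 0.809 to 1.30) and of 1.47 in db (1.16 to 1.87). Cyp4b1, the neighbour of the cluster, had 10 counts in ob, 0 in NASH, 8 in db and 5 in wild-type.

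Enzymes that act with Cyp4a were mixed. Counts of list genes that stood at least 2-fold above or below wild-type are to be read beside the shares of all features, which were 34.7% and 15.7% in ob, 20.3% and 32.0% in NASH, and 28.9% and 21.5% in db. Por, the reductase that passes electrons to every P450 of the endoplasmic reticulum, had 169 counts in ob, 12 in NASH, 757 in db and 16 in wild-type. It was 3.01-fold (1.8 to 5.39) higher in ob and 19.2-fold (11.8 to 33.8) higher in db, and its ratio in NASH was 0.659 (0.285 to 1.49). Aldh3a2, the fatty aldehyde dehydrogenase of the next oxidation steps, had 112 counts in ob, 6 in NASH, 39 in db and 3 in wild-type, and unlike Por and the Cyp4a genes was 2.01-fold lower in db than in ob (1.39 to 2.98).
Of the 12 partners past the filter, 5 were higher and 0 lower in ob, 1 higher and 2 lower in NASH, and 6 higher and 1 lower in db. Their share of higher genes was 41.7% in ob and 50% in db. Of 12 peroxisomal beta-oxidation genes, 4 (33.3%) were higher and 1 lower in ob, 2 (16.7%) higher and 4 (33.3%) lower in NASH, and 3 (25.0%) higher and 1 lower in db, near the shares of all features for all but the lower genes in ob and db. In each of these lists 1 of the lower genes in NASH had no more than 3 counts in either library. Acaa1a, the peroxisomal thiolase, had 134 counts in ob but 2 in NASH, 16 in db and 6 in wild-type, and was 5.88-fold lower in db than in ob (3.49 to 10.6). Of 14 genes of mitochondrial fatty acid oxidation, 5 were higher and 0 lower in ob, and the 35.7% higher was near the 34.7% of all features. In NASH 1 was higher and 1 lower, and in db 6 (42.9%) were higher and 0 lower.

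PPARalpha targets and fasting genes other than Cyp4a were counted next. Of the 16 past the filter, 5 were higher and 2 lower in ob, 3 higher and 8 lower in NASH, and 11 higher and 2 lower in db, with a median in db of 1.86 against 0.10 over all features. These counts include 1 higher and 1 lower gene in NASH and 1 lower gene in db with no more than 3 counts in either library. Retsat, retinol saturase, had 476 counts in ob, 2 in NASH, 1411 in db and 81 in wild-type, and was 7.08-fold higher in db (5.66 to 8.97). G0s2, an inhibitor of the triglyceride lipase ATGL, had 50 counts in ob and 57 in db against 0 in NASH and in wild-type, at least 4.75-fold and at least 7.72-fold higher than wild-type. Slc27a4, a fatty acid transport protein, had 37, 1, 57 and 1 counts in ob, NASH, db and wild-type. Of the receptor list, Hnf4a, a nuclear receptor of hepatocyte identity, had 57, 3, 40 and 3 counts in that order, and 2 of 5 genes were higher and 2 lower in db.

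Cyp4a12a is itself male-biased, and most of the male-biased, growth-hormone-dependent genes listed differed the other way in db. Of 23 such genes past the filter, 1 was higher and 19 lower in ob, 0 higher and 20 lower in NASH, and 2 higher and 18 lower in db, with a db median of -2.02. Mup7, a major urinary protein with close copies of its own, had 428 counts in ob, 15 in NASH, 658 in db and 2732 in wild-type, and was 10.2-fold lower in db (9.38 to 11.1). Slco1a1, an organic anion transporter, had 0, 2, 52 and 87 counts in the same order, and was at least 102-fold lower in ob and 4.12-fold lower in db (2.89 to 5.92).
Elovl3, a fatty acid elongase, had 7 counts in ob, 0 in NASH, 25 in db and 63 in wild-type, and was 6.2-fold lower in db (3.85 to 10.3). Cyp4a12a was thus 7.45-fold higher in db while these 3 genes, named for their large differences, were lower there. Most of the 18 lower genes were Mup genes, close copies whose reads can be shared, and every listed Mup gene was among them. The 2 higher in db were Cyp2d9 (2.43-fold, 2.07 to 2.86) and Nudt7 (4.88-fold, 0.722 to 208). The other 3 lay within 2-fold of wild-type, Ugt2b1 at a ratio of 0.795, Ugt2b38 at 1.25 and Cyp2u1 at 0.948. Between the mutants, db stood at least 2-fold above ob for 17 of the 23 and below for 0, against 19.6% and 30.3% of all features. The 17 again include every listed Mup gene. Both Cyp4a12 genes stood above as well. So did 10 of 12 hepatocyte markers, 6 of 13 other hepatocyte P450 genes and 8 of 11 genes of arachidonic acid metabolism, with 0 below in each list. Of 13 female-biased genes, 7 were higher (1 of them with no more than 3 counts in either library) and 0 lower in ob, and 7 higher and 1 lower in db. A1bg, a female-biased plasma protein, had 103 counts in ob and 13 in db against 0 in NASH and in wild-type. Stat5b, the growth hormone transducer, had 17, 4, 2 and 3 counts in ob, NASH, db and wild-type, too few to compare with wild-type.

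Other P450 enzymes of hepatocytes gave the frame for the family. Of 13 such genes, 4 were higher and 0 lower in ob, 0 higher and 12 lower in NASH, and 11 higher and 0 lower in db, and their sum was 1.20-fold higher in ob, at a ratio of 0.151 in NASH and 2.48-fold higher in db. Cyp2a5, the coumarin hydroxylase, had 968 counts in ob, 32 in NASH, 1088 in db and 28 in wild-type, and was 9.86-fold higher in ob (6.78 to 14.9) and 15.8-fold higher in db (10.9 to 23.9), with a ratio of 1.0 in NASH (0.586 to 1.73). Of 11 other P450 and hydrolase genes of arachidonic acid metabolism, 1 was higher and 2 lower in ob, 0 higher and 10 lower in NASH, and 8 higher and 0 lower in db. Their db median was 1.94 and that of the 13 hepatocyte P450 genes 1.59, near the 1.86 of the PPARalpha targets.
Cyp2j5, an arachidonic acid epoxygenase, had 275, 2, 445 and 72 counts in ob, NASH, db and wild-type and was 2.51-fold higher in db (1.95 to 3.27). Cyp2c29, another epoxygenase, had 1134, 7, 1844 and 178 counts and was 4.21-fold higher in db (3.61 to 4.94). Cyp27a1, a sterol hydroxylase of the inner mitochondrial membrane, had 184, 5, 298 and 39 counts and was 3.11-fold higher in db (2.22 to 4.45).

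**Figure D4:**
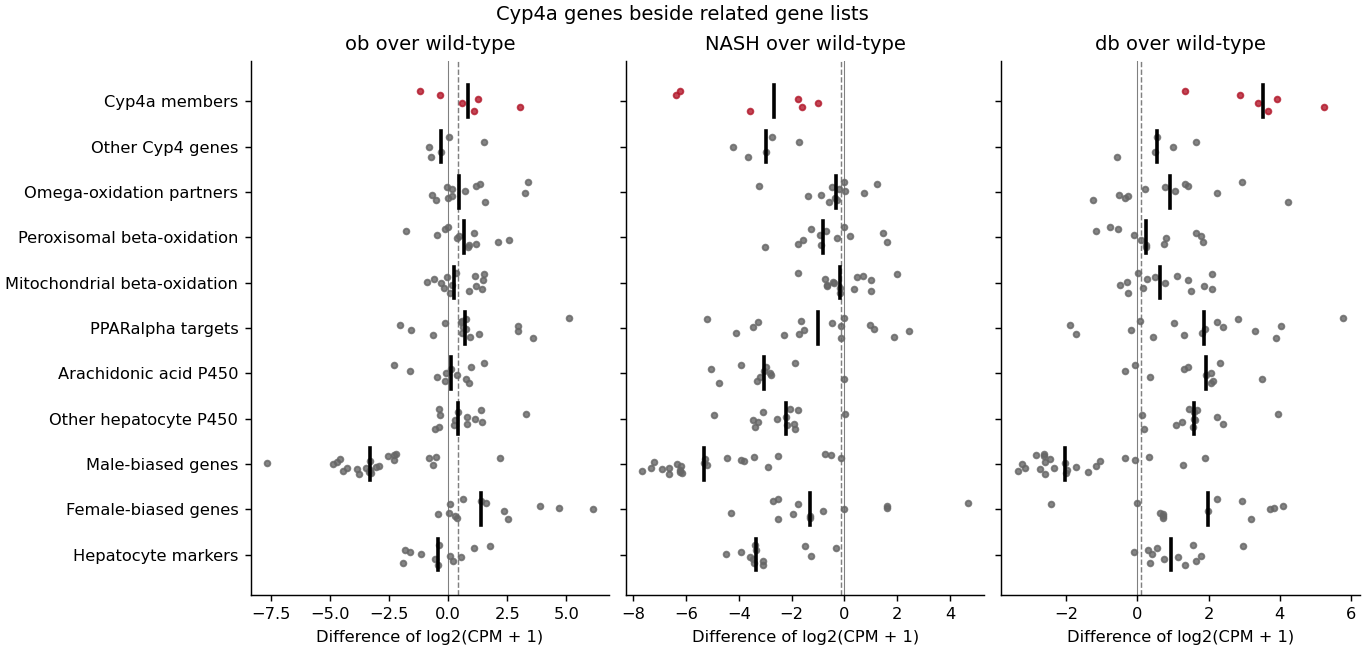
Difference of log2(CPM + 1) from wild-type in ob, NASH and db for the 6 Cyp4a genes and the genes of 10 lists; each point is a gene past the filter, bars are medians, and the dashed line is the median of all features. In db the Cyp4a median is 3.52, against 1.86 for PPARalpha targets and -2.02 for male-biased genes. The db median is 1.94 for arachidonic acid P450 genes and 1.59 for other hepatocyte P450 genes.

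Hepatocyte markers moved with the Cyp4a levels in NASH and db. Of the 12 hepatocyte markers, 2 were higher and 4 lower in ob, 0 higher and 11 lower in NASH, and 6 higher and 0 lower in db, and their sum had ratios to wild-type of 0.696, 0.114 and 2.23. The macrophage markers were 4.33-fold higher in sum in NASH, and 10 of 12 were at least 2-fold higher there. Fewer hepatocytes, less RNA per hepatocyte and less RNA from outside mitochondria in a preparation cannot be told apart in bulk samples. The mtDNA-like features held 28.7% of counts in ob, 75.5% in NASH, 26.3% in db and 53.3% in wild-type. The part of each in the lower NASH and higher db levels was not tested beyond the ratios to the markers. Under these the Cyp4a10 group was 7.26-fold higher in ob, 1.87-fold higher in NASH and 11.2-fold higher in db than in wild-type. The Cyp4a12 ratios on that scale were 0.887 in ob, 0.115 in NASH and 2.29 in db.

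**Figure D5:**
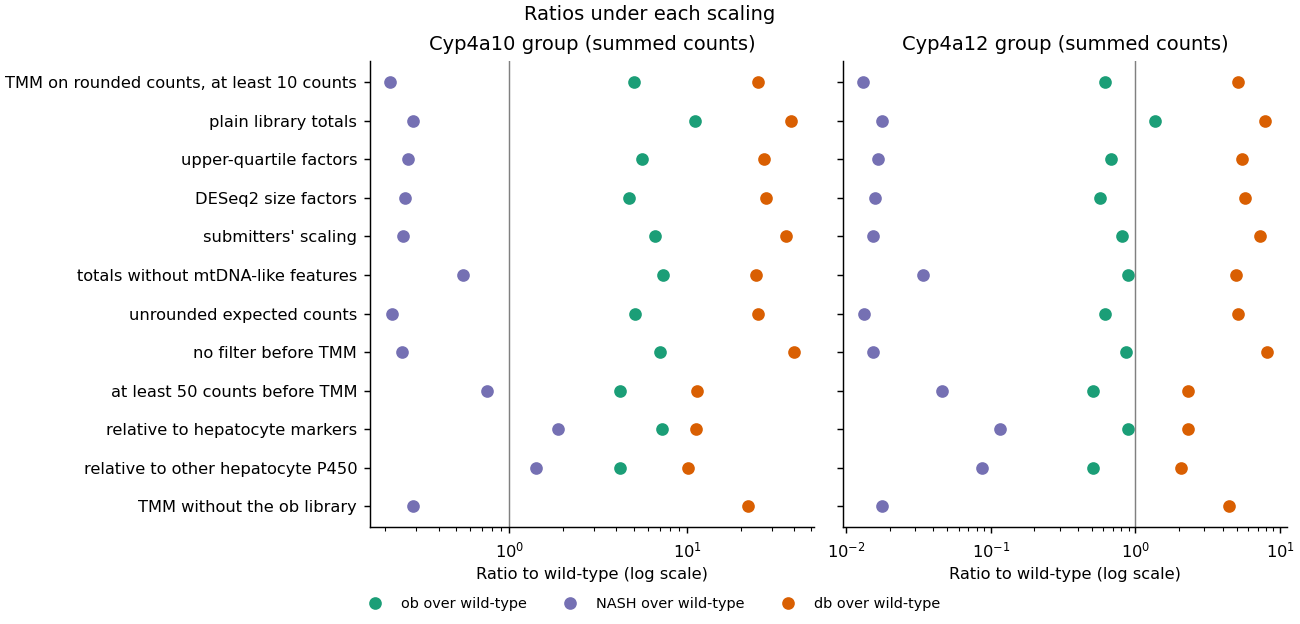
Ratio to wild-type (log axis) of the summed Cyp4a10 group and Cyp4a12 group in ob, NASH and db under 12 scalings (11 for ob, which has no value without its own library). The db ratios stay above 1 under all 12, the NASH ratio of the Cyp4a10 group passes 1 relative to hepatocyte markers (1.87) and to other P450 genes (1.41), and the ob ratio of the Cyp4a12 group passes 1 by library totals (1.36).

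Genes whose pattern over the 4 libraries was nearest to the summed groups were sought among 987 features with at least 50 counts in a library, by the root mean square difference of centred log2(CPM + 1). Among the 5 nearest to the Cyp4a10 group were Erbb3 (0.469), Abca3 (0.471), C4a (0.573) and Ebpl (0.619). Nearest to the Cyp4a12 group were Retsat (0.521), Sil1 (0.572), Cyp2d9 (0.573), Dsg2 (0.672) and Spp2 (0.673). Cyp2d9, a male-biased P450, had 397 counts in ob, 5 in NASH, 1058 in db and 177 in wild-type. Erbb3, Ebpl, Sil1, Dsg2 and Spp2 had 0 counts in NASH and Abca3 had 1, so their distances depend in part on the pseudocount. The Cyp4a12 group itself had 1 count in NASH. With 4 libraries such likeness is a description only.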

How the data were processed

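The 4 libraries (ob, NASH, db and wild-type) held total RNA of liver mitochondria. The miRNeasy Mini Kit served for extraction and the strand-keeping NEBNext Ultra Directional kit, after removal of ribosomal RNA, for library preparation, per the labels' protocols. The submitters' processing notes list bcl2fastq 2.20, Trimmomatic 0.32, TopHat2 2.1.1, Bowtie2 2.3.2 and build mm10. Not given in the sources used here are the counting program, its annotation, its strand setting and how multi-mapped reads were handled, which leaves the split among near copies uncertain.

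The authors deposited expected counts per feature, with fractions, which were rounded to whole numbers here, group sums after summing. A second set of deposited values is TMM-scaled and on a log2 scale, per the file headers, and served here only as an alternative scaling. TMM factors (edgeR 4.0.16, R 4.3.3) came from features that reached 10 counts in any library, on totals over all features. The factors were 1.51 in ob, 0.923 in NASH, 1.05 in db and 0.684 in wild-type. Differences used log2(CPM + 1), and a feature was counted as higher or lower from 2-fold. Ratios carry exact binomial intervals conditional on the sum, levels exact Poisson intervals (scipy 1.17.1). A count of 0 was set to 3 counts. Exon lengths and transcripts came from GENCODE M21. The 9 mtDNA-like features had transcripts matching mitochondrial DNA at 80% identity or more over at least 50% of their length (BLAST+ 2.17.0). The scaling and calls were also run on simulated data, where only features expected to reach 10 counts were changed. The outcome is not reported here.

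The members, gene lists and markers were chosen with earlier results of these data known. Named were all 6 genes, up to 4 genes of each list with the largest differences, a few fixed genes, and the 5 nearest patterns of each sum. Some genes that this rule names, and part of the db genotype, are not reported here. Alternatives were other scalings, filters and pseudocounts. Those relative to hepatocyte markers, relative to other P450 genes, and without the ob library were chosen after seeing the data.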

Additional observations from a re-analysis of the deposited data

How the results depend on the processing

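Under other scalings the db over wild-type ratios stayed above 1 and the ob over wild-type ratio of the Cyp4a10 group stayed above 1, while sizes moved. For the Cyp4a10 group in ob (5.05), the ratio was 11.1 by library totals, 6.59 by the submitters' scaling, 7.30 by totals without mtDNA-like features, 7.07 with no filter and 7.26 relative to hepatocyte markers. For it in NASH (0.213), the ratio was 0.549 by totals without mtDNA-like features and 0.746 with a filter of 50 counts. It was 1.87 relative to hepatocyte markers and 1.41 relative to other P450 genes, from 25 NASH counts and with no interval computed. In db (25.1), it was 38.5 by library totals, 35.8 by the submitters' scaling, 39.8 with no filter, 11.3 with the filter of 50, 11.2 relative to the markers and 10.1 relative to the P450 genes. In db over ob (4.97), it was 3.46 by library totals, 5.95 by DESeq2 size factors, 5.43 by the submitters' scaling, 3.35 without mtDNA-like features, 5.62 with no filter, 2.70 with the filter of 50, 1.55 relative to the markers and 2.41 relative to the P450 genes. For the Cyp4a12 group in ob (0.617), the ratio reversed to 1.36 by library totals and was 0.891 without mtDNA-like features, 0.864 with no filter and 0.887 relative to the markers. In NASH (0.0131), it was 0.115 relative to the markers and 0.0867 relative to the P450 genes. In db (5.12), it was 7.86 by library totals, 7.30 by the submitters' scaling, 8.11 with no filter, 2.3 with the filter of 50, 2.29 relative to the markers and 2.07 relative to the P450 genes. In db over ob (8.30), it was 5.79 by library totals, 5.60 without mtDNA-like features, 4.50 with the filter of 50, 2.59 relative to the markers and 4.03 relative to the P450 genes. Of the 6 genes, 0 in place of 1 were at least 2-fold lower in ob by library totals, the submitters' scaling, totals without mtDNA-like features and no filter. In NASH 3 in place of 6 were lower without mtDNA-like features and with the filter of 50, and 5 under the other alternatives except the pseudocount of 0.5 CPM, where 6 were. The log2 difference in NASH reversed for Cyp4a14 to 0.17 with the filter of 50, and for Cyp4a31 to 0.17 without mtDNA-like features and 0.57 with the filter of 50. The median of the PPARalpha targets in db over ob reversed to -0.17 with the filter of 50. The cause of these shifts was not tested. The median log2 difference of all features lay between 0.07 and 1.41 in ob, between -0.17 and 0.98 in NASH, between -0.12 and 0.62 in db and between -0.72 and 0.06 in db over ob. No paired analysis was possible because each group had 1 library. Depth limits NASH, where the 6 genes had 26 counts in all, and wild-type, where they had 170.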
